A study of Homo sapiens with 10 samples.

Results

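CTCF, its paralog CTCFL and 8 genes of the cohesin machinery or of DNA looping were followed through the knockdown of 4 chromatin regulators in human embryonic stem cells. The 10 genes are CTCFL, CTCF, RAD21, SMC1A, SMC3, STAG1, STAG2, NIPBL, WAPL and YY1, picked by name out of 13808 gene rows of a table of 14785 rows. All 10 had a row, and no row was removed for low values. They were proposed with results of these data in view, among them the level of CTCFL after knockdown of KDM1A, so values of shKDM1A against the control are given as a description and carry no test here.

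The cells were H1, an established human embryonic stem cell line labelled as wild type in every group, grown in mTeSR1 medium on Matrigel. Every group received a short hairpin RNA (shRNA) from packaged virus and was then selected with puromycin. The hairpins were directed against SMARCA4 (an ATPase of the SWI/SNF remodellers), MAFK (a small MAF transcription factor), E2F6 (a repressive E2F factor) or KDM1A (a histone demethylase), and the control hairpin, shLUC, against luciferase. Each of the 5 groups had 2 libraries of total RNA. All libraries come from 1 cell line, and the hairpin sequences, the number of hairpins for each target and the age of the cultures at harvest are not given in the sources used here. The submitters call the experiments biological duplicates and describe no separate cultures, so the p-values measure the spread between these libraries.

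Cohesin is a ring that holds sister chromatids together and extrudes loops of chromatin. SMC1A, SMC3 and RAD21 form the ring, STAG1 or STAG2 binds to it, NIPBL loads it and drives extrusion, and WAPL releases it from DNA. CTCF is a zinc finger protein that binds DNA at defined sites and halts cohesin there, which fixes loop ends and domain borders. CTCFL, also called BORIS, has a closely similar zinc finger region but different ends, and is known as a gene of the male germ line that is silent in most somatic tissues and active in some tumours.

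The promoters of CTCF and CTCFL are shown because CTCFL is the member that moved most and CTCF is its paralog that stayed near its control level. The sequences are RefSeq promoters on GRCh38.p14, written 5′ to 3′ on the strand of the gene, and leave out every base that GENCODE 29 counts as exon. Capitals mark CpG dinucleotides, the sites of most DNA methylation in mammals. The CTCF sequence ends at the outermost annotated start of the gene (chr16:67562310-67562406, plus strand). CTCFL has 3 annotated promoters, of which one has no base outside exons. The others are the exon-free part before an inner start (chr20:57524868-57524947, minus strand) and the whole window before the outermost start (chr20:57525653-57525902, minus strand).
CTCF: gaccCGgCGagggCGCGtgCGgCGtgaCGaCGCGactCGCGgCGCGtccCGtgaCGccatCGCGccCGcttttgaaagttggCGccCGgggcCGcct
CTCFL, inner start: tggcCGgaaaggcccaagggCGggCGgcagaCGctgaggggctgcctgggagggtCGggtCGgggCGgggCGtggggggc
CTCFL, outermost start: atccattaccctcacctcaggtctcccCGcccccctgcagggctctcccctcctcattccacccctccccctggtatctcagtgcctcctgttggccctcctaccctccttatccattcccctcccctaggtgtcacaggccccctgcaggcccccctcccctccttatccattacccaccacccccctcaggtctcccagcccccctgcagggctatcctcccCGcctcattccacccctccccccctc
The CTCF stretch of 97 bases held 21 CpGs, the CTCFL stretch of 80 bases held 8, and the CTCFL stretch of 250 bases held 2. In the full windows of 250 bases, exon bases included, CTCF had 39 CpGs and more than 97.3% of the 35116 promoters of the same length. The 3 CTCFL windows had 15, 7 and 2, with 57.1%, 41.1% and 14.7% of promoters holding fewer.

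CTCFL is the member whose level moved most. Values throughout are the authors' normalized tag counts, whole numbers with nearly equal totals and the same median and maximum in all libraries. How they were normalized is not given in the sources used here. CTCFL (ENSG00000124092, chromosome 20, 57495966 to 57525652, GRCh38, minus strand) stood at 96 and 82 in the shLUC libraries, at 100 and 126 in shSMARCA4, at 151 and 131 in shE2F6, at 252 and 284 in shMAFK, and at 1140 and 995 in shKDM1A. No range of these 5 groups overlapped another, so the order of the levels was shLUC, shSMARCA4, shE2F6, shMAFK and shKDM1A. The shKDM1A mean of 1068 ± 103 (SD, n = 2) was 12 times the shLUC mean of 89.0 ± 9.90, and the shMAFK mean of 268 ± 22.6 was 3.01 times it.

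The tests of CTCFL were made with limma on log2(value + 1) in 1 fit of all libraries, with p-values adjusted over all 14785 rows and a threshold of 0.05. An F-test over shLUC, shSMARCA4, shMAFK and shE2F6, which leaves shKDM1A out of the comparison, called CTCFL at a limma adjusted p of 0.00849. CTCFL was the only one of the 10 members called, where 5.24% of all rows were called. The F-test still shares the shLUC libraries with the shKDM1A comparison, and its estimate of the spread includes the shKDM1A libraries. Without shMAFK replicate 2 the limma adjusted p of this F-test was 0.0795, so the call rests on that library. The MAFK transcript itself was at 216 in shMAFK replicate 2 and at 82 in replicate 1, against 212 and 288 in shLUC, so the former lay within the control range.

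Compared with shLUC alone, CTCFL did not pass the threshold in any of the 3 knockdowns tested. The log2 difference in shMAFK was 1.58 (SE 0.19, 95% interval 1.15 to 2.02, limma adjusted p 0.0619), the rise ranked 59 among all rows. In shE2F6 it was 0.66 (SE 0.19, interval 0.22 to 1.09, limma adjusted p 0.853), and in shSMARCA4 0.34 (SE 0.19, interval -0.10 to 0.77, limma adjusted p 0.457). The shMAFK difference passed in the fit without both shKDM1A libraries (limma adjusted p 0.0343), without shKDM1A replicate 1 alone (0.0258) or replicate 2 alone (0.0282), and with a separate weight for each group (0.00247). These comparisons share the shLUC libraries with the shKDM1A comparison.

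Direct comparisons of the knockdowns use no shLUC library for the difference itself, but their SE and p-value come from the fit of all 10 libraries. They were added after the data had been seen. CTCFL was higher in shMAFK than in shSMARCA4 by 1.25 on the log2 scale (SE 0.19, limma adjusted p 0.00602), where 7.76% of rows were called. Without shMAFK replicate 2 that difference was 1.16 (limma adjusted p 0.0706). The difference between shMAFK and shE2F6 was 0.92 (SE 0.19, limma adjusted p 0.0839, with 0.487% of rows called), and that between shE2F6 and shSMARCA4 was 0.32 (SE 0.19, limma adjusted p 0.504, with 3.55% called). Leaving out shKDM1A replicate 1 or 2 brought the difference between shMAFK and shE2F6 to a limma adjusted p of 0.0455 or 0.0444, and leaving out both gave 0.0534. No other member was called in these direct tests.

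In shKDM1A, the log2 difference of CTCFL from shLUC was 3.57, which ranked 8 among the rises of all 14785 rows. The KDM1A transcript itself was at 3290 and 1879 in these libraries, against 6344 and 5925 in shLUC. The library with the higher remaining KDM1A also had the higher CTCFL. Replicates of shKDM1A differed from each other more than those of other groups, with an SD over all rows of 0.530 on the log2 scale against 0.264 to 0.335. For CTCFL the shKDM1A replicates were 1140 and 995, a gap far smaller than the distance to any other group.

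**Figure D1:**
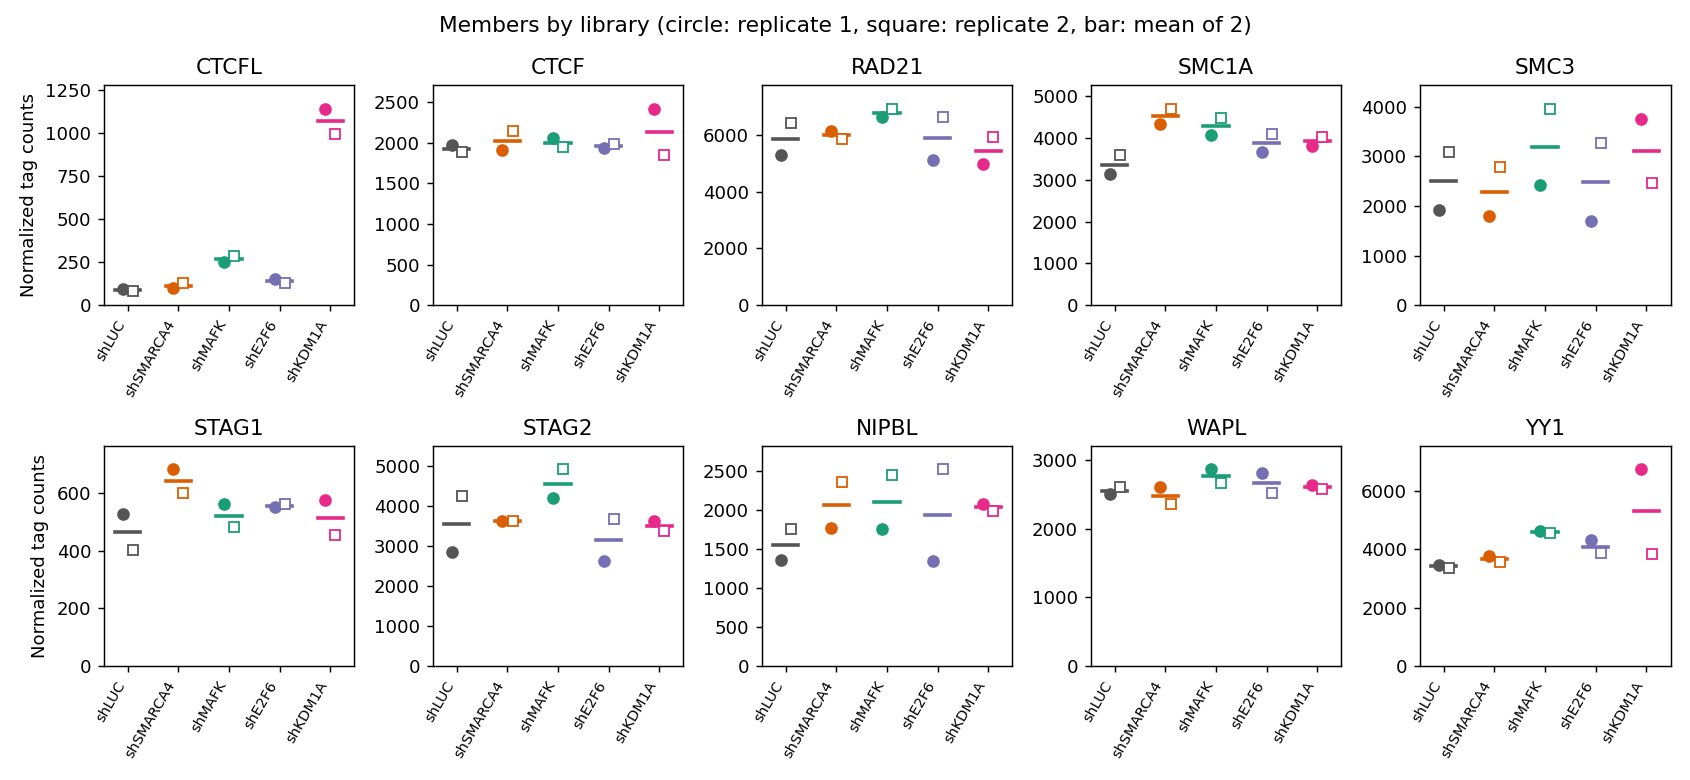
Normalized tag counts of the 10 members by group, each on a linear axis of its own that starts at 0. Circles are replicate 1, squares replicate 2 and bars the mean of 2. CTCFL runs from 82 in shLUC to 1140 in shKDM1A with no overlap between groups, while CTCF stays between 1855 and 2421.

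CTCF, the partner of CTCFL in sequence and the anchor of most cohesin loops, was nearly flat. CTCF (ENSG00000102974, chromosome 16, 67562407 to 67639185, plus strand) was at 1971 and 1885 in shLUC, 1930 and 1983 in shE2F6, 2053 and 1945 in shMAFK, 1915 and 2139 in shSMARCA4, and 2421 and 1855 in shKDM1A. Every group overlapped shLUC, and the highest library was 1.31 times the lowest. The log2 difference was 0.07 in shSMARCA4 (SE 0.17, limma adjusted p 0.913), 0.05 in shMAFK (limma adjusted p 0.991) and 0.02 in shE2F6 (limma adjusted p 1.00). Its difference in shKDM1A was 0.14, and shKDM1A replicate 1 alone lay above 2139.

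Levels of different genes were compared only per kilobase of annotated exon. On that scale CTCFL was at 9.97 ± 1.11 (SD, n = 2) normalized tag counts per kilobase in shLUC, higher than 2.38% of genes, and CTCF was at 190 ± 5.98, higher than 64.6%. CTCFL per kilobase was thus 5.25% ± 0.419 of CTCF in shLUC, 6.33% ± 0.539 in shSMARCA4 and 8.22% ± 0.981 in shE2F6. It was 15.3% ± 1.87 in shMAFK and 57.4% ± 5.28 in shKDM1A. In shKDM1A the level of CTCFL per kilobase, 120 ± 11.5, lay above that of STAG1 (65.6 ± 11.0) and below those of the other 8 members. Dividing by the longest transcript in place of all exons gave 5.48% of CTCF in shLUC and 59.9% in shKDM1A, and placed CTCFL above NIPBL too in shKDM1A.

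The deposited rows all reached at least 80 in at least 2 libraries. CTCFL reached that value in all 10 libraries, so its row did not depend on shKDM1A.

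Among the 3 ring subunits, SMC1A was the one with the same direction in each knockdown. SMC1A (ENSG00000072501, chromosome X, 53374149 to 53422728, minus strand) was at 3126 and 3583 in shLUC, 3673 and 4092 in shE2F6, 4065 and 4486 in shMAFK, 4340 and 4704 in shSMARCA4, and 3798 and 4034 in shKDM1A. All 8 knockdown libraries lay above both control libraries. The log2 difference was 0.43 in shSMARCA4 (SE 0.15, 95% interval 0.10 to 0.77, limma adjusted p 0.172), 0.35 in shMAFK (SE 0.15, interval 0.02 to 0.69, limma adjusted p 0.552) and 0.21 in shE2F6 (limma adjusted p 1.00). None passed the threshold, and the difference in shKDM1A was 0.23. The comparisons share the shLUC libraries, so a low value there would enter each of them.

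SMC3, the partner of SMC1A in the ring, varied more between replicates than between groups. SMC3 (ENSG00000108055, chromosome 10, 110567691 to 110604636, plus strand) was at 1920 and 3093 in shLUC, 1704 and 3276 in shE2F6, 2430 and 3966 in shMAFK, 1792 and 2782 in shSMARCA4, and 3755 and 2462 in shKDM1A. All 5 groups overlapped. The log2 differences of -0.13, 0.35 and -0.04 in shSMARCA4, shMAFK and shE2F6 each had an SE of 0.40 and did not pass, and the limma adjusted p of the F-test was 0.883.

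RAD21, the kleisin that closes the ring and the subunit cut by separase, was the most abundant member per kilobase. RAD21 (ENSG00000164754, chromosome 8, 116845935 to 116874866, minus strand) was at 5300 and 6408 in shLUC, 5108 and 6647 in shE2F6, 6647 and 6928 in shMAFK, 6143 and 5844 in shSMARCA4, and 4958 and 5923 in shKDM1A. Only shMAFK lay wholly above the control. The difference there was 0.22 on the log2 scale (SE 0.18, limma adjusted p 0.852), against 0.04 in shSMARCA4, -0.00 in shE2F6 and -0.10 in shKDM1A.

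STAG1 and STAG2 are the alternative subunits that bind the ring and CTCF. STAG1 (ENSG00000118007, chromosome 3, 136336233 to 136752403, minus strand) was at 528 and 404 in shLUC, 553 and 562 in shE2F6, 562 and 482 in shMAFK, 684 and 602 in shSMARCA4, and 576 and 454 in shKDM1A. The shSMARCA4 and shE2F6 libraries lay above the control, and those of shMAFK and shKDM1A overlapped it. The log2 difference was 0.47 in shSMARCA4 (SE 0.19, interval 0.04 to 0.90, limma adjusted p 0.250), 0.17 in shMAFK and 0.27 in shE2F6, and none passed the threshold. The difference in shKDM1A was 0.15.

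STAG2 (ENSG00000101972, chromosome X, 123960212 to 124422664, plus strand) was at 2850 and 4228 in shLUC, 2606 and 3673 in shE2F6, 4196 and 4906 in shMAFK, 3622 and 3604 in shSMARCA4, and 3622 and 3366 in shKDM1A. Every group overlapped the control. Its largest log2 difference among the tested knockdowns was 0.39 in shMAFK (SE 0.23, limma adjusted p 0.718). Per kilobase of exon, STAG2 was 7.60 ± 3.43 times STAG1 in shLUC, with ratios of 5.41 ± 0.469 for shSMARCA4, 8.45 ± 1.84 for shMAFK, 5.39 ± 1.24 for shE2F6 and 6.57 ± 0.763 for shKDM1A. STAG2 was the more abundant of the pair in all 10 libraries, and the groups' ratios overlapped that of shLUC.

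NIPBL and WAPL act in opposite directions on cohesin, the former by loading it and the latter by releasing it. NIPBL (ENSG00000164190, chromosome 5, 36876759 to 37066413, plus strand) was at 1356 and 1750 in shLUC, 1349 and 2520 in shE2F6, 1754 and 2450 in shMAFK, 1764 and 2354 in shSMARCA4, and 2071 and 1991 in shKDM1A. The shSMARCA4, shMAFK and shKDM1A libraries lay above the control, in shSMARCA4 and shMAFK only just, at 1764 and 1754 against 1750. The log2 differences were 0.40 in shSMARCA4 (limma adjusted p 0.601), 0.43 in shMAFK (limma adjusted p 0.805) and 0.26 in shE2F6 (limma adjusted p 1.00), each with an SE of 0.30. That in shKDM1A was 0.40.

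WAPL was the steadiest member, with a highest library 1.21 times its lowest. WAPL (ENSG00000062650, chromosome 10, 86435256 to 86521815, minus strand) was at 2512 and 2607 in shLUC, 2818 and 2530 in shE2F6, 2870 and 2666 in shMAFK, 2606 and 2363 in shSMARCA4, and 2639 and 2586 in shKDM1A. Only the shMAFK libraries lay wholly above the control, with a log2 difference of 0.11 (SE 0.14, limma adjusted p 0.944). The differences in shSMARCA4, shE2F6 and shKDM1A were -0.04, 0.06 and 0.03.

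YY1, a zinc finger factor that can join enhancers to promoters, was above the control in every knockdown library. YY1 (ENSG00000100811, chromosome 14, 100238298 to 100282792, plus strand) was at 3474 and 3348 in shLUC, 4309 and 3873 in shE2F6, 4612 and 4572 in shMAFK, 3780 and 3550 in shSMARCA4, and 6746 and 3850 in shKDM1A. The replicates of shMAFK were close together and those of shKDM1A far apart. The log2 difference was 0.10 in shSMARCA4 (SE 0.23, limma adjusted p 0.908), 0.43 in shMAFK (limma adjusted p 0.681) and 0.26 in shE2F6 (limma adjusted p 1.00). The difference of 0.58 in shKDM1A comes mainly from replicate 1.

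**Figure D2:**
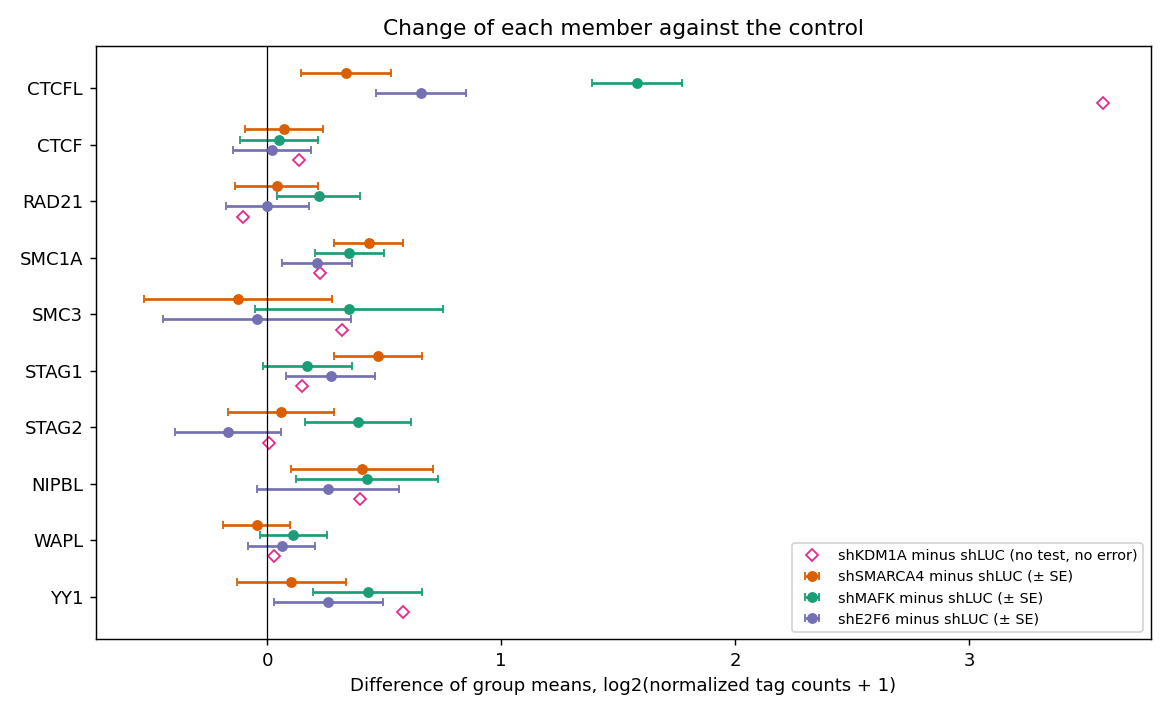
Log2 difference from shLUC of each member in the 4 knockdowns, on the log2(value + 1) scale. Filled points are limma estimates with bars of 1 SE in each direction, and open diamonds are shKDM1A, shown without an error. CTCFL lies at 1.58 in shMAFK and 3.57 in shKDM1A, and the other 9 members lie within 0.58 of 0.

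Counted over the 10 members, 0 passed the limma threshold against shLUC in any of shSMARCA4, shMAFK and shE2F6, where 4.18%, 0.0135% and 0% of all rows were called. At an unadjusted p under 0.05, 2 members were higher in shSMARCA4 (SMC1A and STAG1), 2 in shMAFK (CTCFL and SMC1A) and 1 in shE2F6 (CTCFL), and 0 were lower in each. The corresponding shares of all rows, in either direction, were 16.3%, 8.77% and 5.09%. The 27 tests of the other 9 members ranged in size from 0.00 to 0.47 on the log2 scale with a median of 0.17.

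All 10 members had a higher mean in shMAFK than in shLUC, although SMC3 turned to -0.0041 without shMAFK replicate 2 and STAG1 to -0.021 without shLUC replicate 2. Their median log2 difference was 0.35, where the median of all rows was -0.00. In 6 of the 10 both shMAFK libraries lay above both controls, which held for 23.8% of all rows. The members share the 2 control libraries and are not independent of each other, and no test of the list was made. The counts of members wholly above the control were 5 in shSMARCA4, 4 in shE2F6 and 4 in shKDM1A, where the shares of all rows were 25.6%, 20.3% and 17.9%. The medians were 0.09 in shSMARCA4, 0.14 in shE2F6 and 0.19 in shKDM1A.

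In shKDM1A, 1 of the 10 members, CTCFL, was at least 2-fold higher, where 1.54% of rows were. That contrast is the one the members were proposed from, so nothing is read from this count.

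The replicates of SMC3 and NIPBL differed in a common direction. SMC3 was higher in replicate 2 than in replicate 1 by 0.69 on the log2 scale in shLUC, 0.94 in shE2F6, 0.71 in shMAFK and 0.63 in shSMARCA4, and lower by a log2 difference of -0.61 in shKDM1A. NIPBL differed by 0.37, 0.90, 0.48, 0.42 and -0.06 in the same order. Of all rows, 103 (0.697%) were higher in replicate 2 by more than 0.3 in all 4 of the groups other than shKDM1A, and 8 (0.0541%) by more than 0.6. Higher by any amount in all 4 were 1611 rows (10.9%), with SMC1A, SMC3 and NIPBL among them. SMC3 was in the sets above 0.3 and above 0.6, and NIPBL in that above 0.3. These limits were chosen after the values had been seen.

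The labels do not say what a replicate number shares between groups. Over all rows, the difference between replicates was weakly related to exon length, with Spearman correlations across genes of 0.126 for shLUC, 0.141 for shSMARCA4, 0.0935 for shMAFK, 0.123 for shE2F6 and 0.0313 for shKDM1A. Genes are not independent replicates, and the part of transcript length in the SMC3 and NIPBL values was not tested. In each of shLUC, shSMARCA4, shMAFK, shE2F6 and shKDM1A, 6, 5, 6, 7 and 2 members were higher in replicate 2, where 47.3%, 50.2%, 47.5%, 48.4% and 51.1% of rows were.

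**Figure D3:**
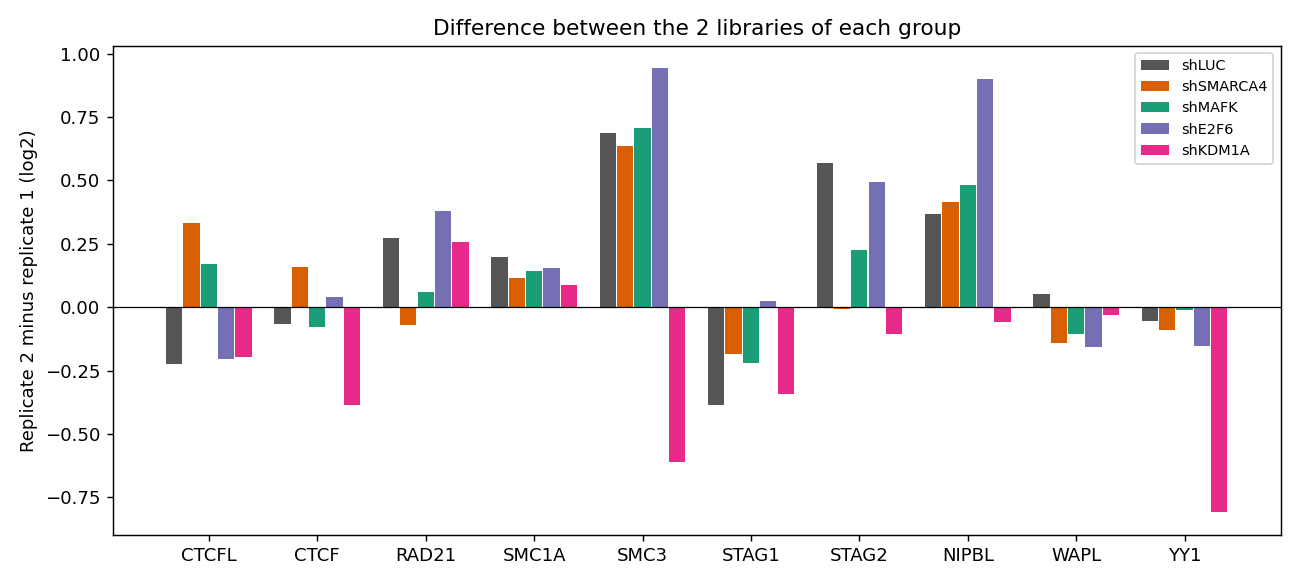
Log2 difference of replicate 2 from replicate 1 for each member, with 1 bar per group. Bars above 0 are higher in replicate 2. SMC3 lies between 0.63 and 0.94 in 4 groups and at -0.61 in shKDM1A, and SMC1A is above 0 in all 5 groups.

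Per kilobase of exon, RAD21 was the highest and CTCFL the lowest member in shLUC. RAD21 was at 945 ± 127 (SD, n = 2) normalized tag counts per kilobase, SMC3 at 586 ± 194, STAG2 at 432 ± 119, YY1 at 391 ± 10.2, WAPL at 354 ± 9.29 and SMC1A at 320.0 ± 30.8. CTCF at 190 ± 5.98, NIPBL at 124 ± 22.2, STAG1 at 59.4 ± 11.2 and CTCFL at 9.97 ± 1.11 followed. The neighbours SMC3 and STAG2, and STAG2 and YY1, overlapped between libraries, so their order is not resolved. With the longest transcript as the length, CTCF (401) was above SMC1A (338) and close to WAPL (404). Values of several members may hold reads of other genes: UTP23, PCCB and TENM1 overlap RAD21, STAG1 and STAG2 on the opposite strand, and whether counting used strand is not stated.

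Other genes of the pathway were read from lists of cohesin regulators, meiotic cohesin, condensin, the SMC5/SMC6 complex, CTCF partners, the Mediator and cohesin bridge, and germ line genes. Of 99 listed genes 71 were in the table, and 0 passed the limma threshold in shSMARCA4, shMAFK or shE2F6, where 4.18%, 0.0135% and 0% of all rows did. At an unadjusted p under 0.05, 3 were higher and 1 lower in shSMARCA4, 2 higher in shMAFK, and 2 higher and 1 lower in shE2F6, where the shares of all rows in either direction were 16.3%, 8.77% and 5.09%. The medians of the 71 were 0.07, 0.00 and 0.08 on the log2 scale, against 0.01, -0.00 and -0.00 for all rows.

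Cohesin regulators comprised 12 genes, all in the table, that load, acetylate, protect or cleave the ring. Their median log2 differences were 0.18, 0.06 and 0.12 for the 3 knockdowns in that order, and 0 of 12 had an unadjusted p under 0.05 in any of these. ESCO1, an acetyltransferase of SMC3, had the largest positive difference in shMAFK (0.65, limma adjusted p 0.781), and PTTG1, the securin that restrains separase, the largest negative one (-0.35, limma adjusted p 0.810). Of meiotic cohesin, 3 of 4 genes were in the table (REC8, RAD21L1 and STAG3), with medians of 0.30, -0.32 and 0.03, and SMC1B was not analysed here. STAG3, the meiotic partner of STAG1 and STAG2, was 0.44 higher in shMAFK (limma adjusted p 0.687).

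Condensin, which compacts mitotic chromosomes, had 8 of 8 genes in the table. NCAPG2, a subunit of condensin II, was at 3025 and 3366 in shLUC and 2030 and 2162 in shSMARCA4. Its log2 difference of -0.61 (SE 0.16, limma adjusted p 0.0829) did not pass, and the libraries did not overlap. In the SMC5/SMC6 list, 9 of 9 genes were in the table, and SLF1, a factor that brings the complex to damaged DNA, was at 401 and 408 in shLUC and 712 and 746 in shSMARCA4 (log2 difference 0.85, SE 0.23, limma adjusted p 0.0909).

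Of the CTCF partners and other architectural factors, 18 of 19 were in the table. LDB2, a paralog of the looping factor LDB1, was at 1184 and 872 in shLUC and 1866 and 1580 in shSMARCA4 (log2 difference 0.76, SE 0.25, limma adjusted p 0.156). BRD2, a bromodomain protein, was 0.37 higher in shMAFK (limma adjusted p 0.569). All 8 genes of the Mediator bridge list were in the table, and CDK8, its kinase, had a log2 difference of -0.62 in shE2F6 (SE 0.21, limma adjusted p 0.897). None of these passed, although NCAPG2, SLF1 and LDB2 did in shSMARCA4 with a separate weight for each group. In that fit 1306 of all 14785 rows were called in shSMARCA4, so nothing particular to these genes is read from it. The shSMARCA4 libraries also differed in lineage markers, as given further on, and the part of that difference in these values was not tested.

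**Figure D4:**
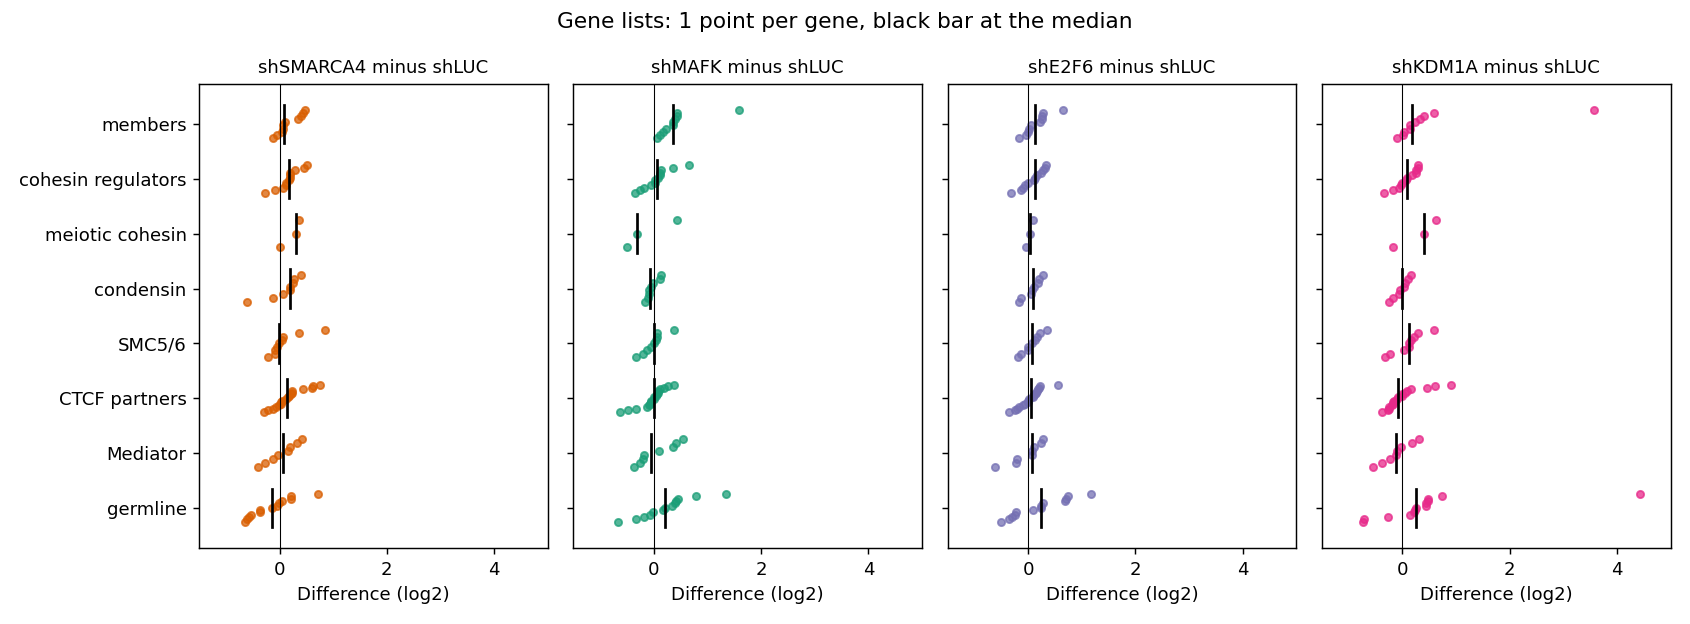
Log2 difference from shLUC of each gene in the lists, by knockdown. Points are single genes and black bars are list medians, with the 10 members in the top line. Medians of the 7 pathway lists lie between -0.32 and 0.41, and the isolated points in shKDM1A are CTCFL at 3.57 and MAGEA4 of the germ line list at 4.43.

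The germ line list holds genes that, like CTCFL, are known from testis, meiosis or tumours, and 13 of its 39 genes were in the table. The medians for shSMARCA4, shMAFK, shE2F6 and shKDM1A were -0.14, 0.20, 0.23 and 0.25. SYCP2, a component of the synaptonemal complex, was 0.74 higher in shE2F6 (SE 0.24, limma adjusted p 0.885). DAZL, a germ cell RNA binding protein, had log2 differences of 0.79 in shMAFK and -0.61 in shSMARCA4 (limma adjusted p 0.481 in the latter). Every row reaches 80 in at least 2 libraries, and outside shMAFK DAZL did so only in shKDM1A replicate 1, at 85. Its row thus depended on shMAFK, and nothing is read from its rise there. None of the 13 genes passed the threshold in shSMARCA4, shMAFK or shE2F6.

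MAGEA4, a cancer-testis antigen on the X chromosome, was highest in the shKDM1A libraries, as CTCFL was. MAGEA4 was at 11 and 22 in shLUC, 40 and 33 in shE2F6, 50 and 34 in shMAFK, 6 and 15 in shSMARCA4, and 354 and 358 in shKDM1A. Its shMAFK and shE2F6 libraries lay above the control and its shKDM1A libraries far above all others. In shSMARCA4 its mean was 0.636 times that of shLUC, where that of CTCFL was 1.27 times. It was named because its correlation with CTCFL was among the 5 highest of 5629 genes with a log2 range of at least 1 and a mean of at least 50. MAGEA4 reached 80, the value that every row reaches in at least 2 libraries, only in shKDM1A. Its row, and its mean of at least 50, thus depended on shKDM1A, and nothing is read from its likeness to CTCFL.

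Across the 10 libraries the 5 highest Pearson correlations with CTCFL were those of EMILIN1 (0.966), EMID1 (0.939), MAGEA4 (0.937), MADCAM1 (0.935) and C3 (0.928). EMILIN1, an extracellular matrix glycoprotein, was at 29 and 32 in shLUC, 47 and 50 in shMAFK, and 175 and 99 in shKDM1A. Such values describe these libraries and largely set 2 shKDM1A libraries against the other 8. The rows of EMILIN1, MAGEA4 and MADCAM1 would not have reached 80 in 2 libraries without shKDM1A, so their likeness to CTCFL was partly set by that limit. By Spearman correlation only EMILIN1 remained among the 5 highest.

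For CTCF, the 5 most alike of 12037 genes were CDK13 (0.950), RILPL1 (0.948), SLMAP (0.946), FAM155A (0.941) and ZNF79 (0.938), with 2 of the 5 also highest by Spearman correlation. CDK13, a kinase of RNA polymerase II, was at 2870 in shKDM1A replicate 1 and between 1454 and 1802 in the other 9 libraries. The likeness to CTCF therefore follows that 1 library closely.

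Genes around CTCFL were read next, to set its values beside those of its neighbourhood. The table held 7 other genes whose start lies within 1000 kb of that of CTCFL: VAPB, RAB22A and PMEPA1 on one side and RBM38, RAE1, BMP7 and TFAP2C on the other. Their log2 differences in shKDM1A ran from -0.998 for TFAP2C to 0.47 for PMEPA1, with 0.01 for VAPB, -0.19 for RAB22A, -0.67 for RBM38, -0.05 for RAE1 and 0.31 for BMP7. None came near the 3.57 of CTCFL.

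PMEPA1, an inhibitor of TGF-beta signalling, rose in shSMARCA4, from 275 and 248 to 1212 and 828. Its log2 difference was 1.94 (SE 0.29, limma adjusted p 0.00809), and the limma adjusted p was 0.0584 without shLUC replicate 1, 0.0900 without shLUC replicate 2 and 0.0608 without shSMARCA4 replicate 1. In the same libraries CTCFL was at 100 and 126. BMP7, a signalling ligand, was at 382 and 338 in shLUC and 636 and 572 in shMAFK, a log2 difference of 0.75 (SE 0.19, limma adjusted p 0.233). TFAP2C went from 60 and 59 in shLUC to 99 and 138 in shMAFK, a log2 difference of 0.96. It reached 80, the value that every row reaches in at least 2 libraries, only in shMAFK. Its row thus depended on shMAFK, and nothing is read from its rise there. The remaining neighbours were lower in shMAFK than in shLUC.

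**Figure D5:**
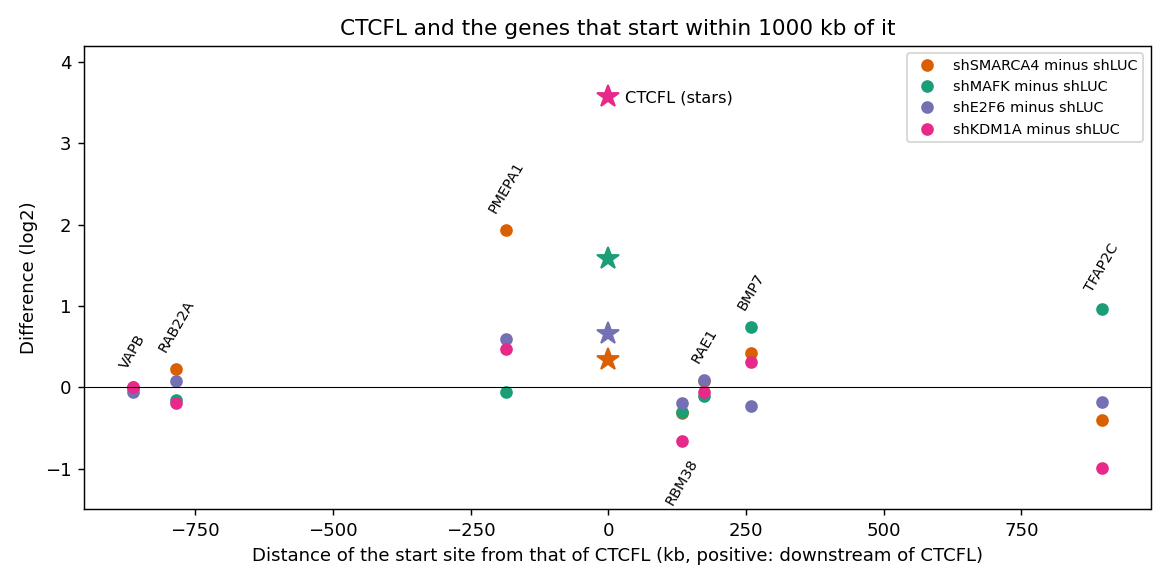
Log2 difference from shLUC of CTCFL and its 7 neighbours in the table, by distance of their start from that of CTCFL in kilobases. Colours are the 4 knockdowns, stars are CTCFL and positive distances lie downstream of it. CTCFL stands at 3.57 in shKDM1A, and PMEPA1 at 1.94 in shSMARCA4 is the highest neighbour.

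The libraries were checked for their targets and for cell identity. SMARCA4 fell to 12.7% of shLUC in shSMARCA4, and the means of KDM1A, E2F6 and MAFK in their own knockdowns were 42.1%, 61.3% and 59.6% of shLUC. MAFK (limma adjusted p 0.572) and E2F6 (limma adjusted p 0.774) did not pass the threshold in their own knockdowns. All 12 pluripotency markers were in the table, with a summed level between 146563 and 270599 per library. POU5F1 made up 148866 of it in shKDM1A replicate 1, which is the maximum that all libraries share. Single markers differed in direction in shSMARCA4: 7 of the 12 were lower and 5 higher. The log2 differences of SOX2, LIN28A, TDGF1 and NANOG were -0.54, -0.44, -0.56 and 0.68 (limma adjusted p 0.0552, 0.0773, 0.115 and 0.284). PRDM14 had the largest fall (log2 difference -1.10), from 930 and 706 in shLUC to 575 and 246. None of the 12 passed the threshold. The 2 endoderm markers of 8 that were in the table summed to between 0 and 61 outside shSMARCA4 and to 3146 and 342 within it. The 4 mesoderm markers of 8 summed to between 2605 and 7552 outside shSMARCA4 and to 11089 and 7543 within it. KDR made up 6746 and 6647 of the sums within it. Of these 4 mesoderm markers 3 were higher in shSMARCA4 than in shLUC and 1 was lower, PDGFRA, at 104 and 40 against 108 and 99. The 4 ectoderm markers of 8 summed to between 6608 and 13474 in all libraries, a sum that hides single markers. In shSMARCA4, 2 of the 4 were higher and 2 lower, and 1 was called higher at the limma threshold. ZIC1 was at 95 and 149 in shLUC and at 462 and 1004 in shSMARCA4. TUBB3 was at 5536 and 3264 in shLUC and at 2200 and 2072 in shSMARCA4. The 2 trophoblast markers of 8 summed to 86 and 80 in shSMARCA4 and to between 172 and 439 elsewhere. FOXA2, a defining endoderm factor, was at 0 to 4 outside shSMARCA4 and at 792 and 170 within it. EOMES, an early mesendoderm factor, was at 0 to 34 and at 2430 and 724. Rows in the table reach at least 80 in at least 2 libraries. The endoderm markers FOXA2 and CER1 and the mesoderm markers EOMES and MIXL1 reached 80 only in shSMARCA4. Their rows are present through that group, so their contrast with the other groups is a description and no test of identity. In such bulk RNA, fewer cells of a type and less RNA per cell cannot be told apart. The part of other cell types in the shSMARCA4 values was not tested. Depth is unknown, since the normalization set library totals between 22836548 and 22855295.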

How the data were processed

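RNA-seq values of 10 libraries (5 groups, 2 replicates each) were taken as deposited. The authors' score per row is a whole number, abbreviated in the file and read here as a normalized tag count. That it is normalized follows from the values: every library had the same median of 594 and maximum of 148866, so read depth and counting error are unknown. STAR, STARsolo and hg38 are named, per the submitters' processing notes, without versions; the annotation, the normalization and the use of strand are not given in the sources used here. The deposited group means were not used, and columns matched to no sample numbered 0. Groups and replicate numbers come from the sample titles.

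Values were analysed as log2(value + 1) with limma 3.58.1 in R 4.3.3 (eBayes with trend, two-sided, 1 fit to all 10 libraries with 5 residual degrees of freedom). P-values were adjusted by Benjamini-Hochberg over 14785 rows. A filter on a mean of at least 10 removed 0 rows. A difference on this scale understates the change of low rows. The procedure was tested on simulated data. Gene positions and exon lengths are from GENCODE 29; all 10 members matched, and RefSeq promoters (GRCh38.p14) were found for 9. Python 3.11.15, pandas 2.3.3 and matplotlib 3.10.9 were used for tables and plots.

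Named genes were the 10 members, the 4 targets, genes of the lists past the threshold or with the largest rise or fall in a list at a mean of at least 50, genes within 1000 kb of the CTCFL start, and the 5 genes most alike to CTCFL and to CTCF. Members and lists were chosen with earlier results of these data known. The labels do not say whether replicate numbers pair libraries across groups, and the numbers were not used as pairs: correlations of replicate differences between groups ran from -0.05 to 0.337 over 10 pairs, with 2 above 0.1, the highest between shSMARCA4 and shE2F6. Alternatives covered the pseudocount, the filter, scaling, the model of the variance, which libraries were fitted, the replicate block and leaving out each library.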

Additional observations from a re-analysis of the deposited data

How the results depend on the processing

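Read depth is unknown, so its part in the precision of any value could not be weighed. Members called in shMAFK against shLUC numbered 0, and 1 (CTCFL) under full quantile normalization, with a weight for each group, with both shKDM1A libraries left out and with only the 2 groups compared; leaving out each library in turn gave 0 to 1. The CTCFL difference in shMAFK kept its direction, from 1.31 to 1.69, with limma adjusted p from 0.00247 to 0.757. Members called by the F-test numbered 1, and 0 to 1 without each library. Listed genes called in shSMARCA4 numbered 0, but 3 with group weights, 2 without both shKDM1A libraries, 1 with only the 2 groups compared, and 0 to 2 without each library. The CTCFL difference of 3.57 in shKDM1A was 3.18 with a pseudocount of 32, and 3.46 to 3.68 without each library. The difference between shMAFK and shSMARCA4 ran from 1.05 to 1.41 (limma adjusted p 0.0016 to 0.0706). Rows called in shMAFK numbered 2, 487 when groups were weighted and 34 when both shKDM1A libraries were left out. The causes were not tested.

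With the replicate number as a block, CTCFL had a limma adjusted p of 0.0849 in shMAFK, 0.0146 in the F-test and 0.00949 between shMAFK and shSMARCA4, and no count of members called changed.

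Signs of small differences turned. RAD21 in shE2F6 became 0.0052 after rescaling to equal medians. Leaving out single libraries gave, in shSMARCA4, CTCF -0.0094 to 0.15, RAD21 -0.10 to 0.18, SMC3 -0.47 to 0.22, STAG2 -0.23 to 0.34, WAPL -0.11 to 0.026, SMC6 -0.54 to 0.11 and NPM1 -0.57 to 0.00. In shMAFK it gave SMC3 -0.0041 to 0.70, STAG1 -0.021 to 0.36 and SMC2 -0.19 to 0.44. In shE2F6 it gave CTCF -0.011 to 0.054, RAD21 -0.19 to 0.19, SMC3 -0.52 to 0.43, STAG2 -0.45 to 0.12, NIPBL -0.19 to 0.71, WAPL -0.016 to 0.14, RAD21L1 -0.18 to 0.37, STAG3 -0.26 to 0.20 and SYCP3 -1.15 to 0.13.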

Other observations

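The promoters of the members differed widely in CpG content. In windows of 250 bases before an annotated start, YY1 had 43 CpGs, WAPL 39, STAG1 34, NIPBL 28 and SMC3 17, against a median of 11 over 35116 promoters. SMC1A had 24 and 15 at its 2 starts, and STAG2 had 29, 13 and 14 at its 3 starts. The letters of 3 motifs were searched on both strands in these windows. TGCTGA, the half-site of small MAF factors, occurred in 14.0% of all promoters and, among the members, once each before CTCF, STAG1 and 1 start of SMC1A. GCGGGAA, an E2F core, occurred in 5.52% of promoters and once each before STAG1 and the other start of SMC1A. CACGTG, an E-box, occurred in 6.35% of promoters and before no member. The 3 windows of CTCFL held none of these letters. A match is a description of the letters and not a bound site.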
